A study of Mus musculus with 15 samples.

Results

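Transcript levels of 8 genes of the Wnt pathway and its TCF/LEF transcription factors were followed through bulk RNA sequencing of mouse bone marrow. The members were taken by gene symbol: Axin2, Lef1, Tcf7, Tcf7l2, Ctnnb1, Apc, Axin1 and Nkd1, 8 of the 38315 genes in the table, and each symbol matched 1 row. The 15 samples fall into 3 groups. The AML group holds 7 bone marrows with acute myeloid leukaemia of the genotype NUP98-NSD1/FLT3-ITD, a fusion of a nucleoporin gene with a histone methyltransferase gene together with an internal tandem duplication in the receptor tyrosine kinase gene FLT3. The references are 4 wild-type whole bone marrows and 4 wild-type lineage-negative bone marrows, the latter depleted of cells that carry surface antigens of mature blood lineages. All mice were kept in a mouse facility from birth. Strain, age and sex, the promoters that drive NUP98-NSD1 and FLT3-ITD, the share of leukaemic cells and any depletion of the AML marrows are not given in the sources used here. The labels do not say that each sample came from a separate animal, so p-values measure the spread between these samples, which may be partly technical.

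In canonical Wnt signalling, a Wnt ligand binds a Frizzled receptor and an LRP co-receptor at the cell surface. Without ligand, a cytoplasmic complex built on the scaffold proteins Axin and APC marks β-catenin for degradation. With ligand, β-catenin, the product of Ctnnb1, accumulates, enters the nucleus and binds the DNA-binding proteins LEF1, TCF7 and TCF7L2, which then activate target genes. Axin2 and Nkd1 are both targets and feedback inhibitors of the pathway. In blood, Tcf7 and Lef1 are known for their roles in T cell development, and Lef1 also for its expression in early B cells.

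Promoter sequences from RefSeq (mouse build GRCm38.p6) were found for 6 of the members, with 12 annotated start sites. They were searched for the TCF/LEF core motif (CTTTG followed by AT, AA, TT or TA, on both strands) and for the GC box GGGCGG (both strands) in the 250 bases before each start. Of the 12 windows, 2 held a TCF/LEF match, against 14.8% of 32851 mouse promoter windows of the same length, and 9 held a GC box, against 32.7%. The windows of Lef1 starts 1 and 2 overlap, as do those of Ctnnb1 starts 1 and 2, so a GC box in the overlap is counted in both. A match is a description of the letters and not a binding site. The listed start of Axin2 and the first listed start of Lef1 are shown because these genes were called different between AML and both references below. The fourth listed start of Lef1 and the second listed start of Tcf7l2 are shown because they held the 2 TCF/LEF matches. Capitals mark GC boxes in the first pair of sequences and the TCF/LEF match in the second pair, and all run 5′ to 3′ along the gene's strand.
Axin2, chr11:108920099-108920348, plus strand: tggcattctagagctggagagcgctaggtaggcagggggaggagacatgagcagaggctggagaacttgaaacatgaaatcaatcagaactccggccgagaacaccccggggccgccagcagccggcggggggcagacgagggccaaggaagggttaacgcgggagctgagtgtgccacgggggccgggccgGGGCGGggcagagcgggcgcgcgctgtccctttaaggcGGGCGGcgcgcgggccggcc
Lef1 start 1, chr3:131110047-131110296, plus strand: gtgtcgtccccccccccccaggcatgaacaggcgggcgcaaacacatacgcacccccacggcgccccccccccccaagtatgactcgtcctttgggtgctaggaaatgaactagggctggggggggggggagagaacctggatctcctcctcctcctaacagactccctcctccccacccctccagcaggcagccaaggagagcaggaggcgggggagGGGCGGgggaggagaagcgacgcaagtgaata
Lef1 start 4, chr3:131156044-131156293, plus strand: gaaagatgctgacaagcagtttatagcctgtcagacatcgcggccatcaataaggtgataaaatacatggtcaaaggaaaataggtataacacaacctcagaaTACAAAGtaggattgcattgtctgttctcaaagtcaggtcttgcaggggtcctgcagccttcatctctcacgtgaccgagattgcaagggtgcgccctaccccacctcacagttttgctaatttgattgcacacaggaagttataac
Tcf7l2 start 2, chr19:55895071-55895320, plus strand: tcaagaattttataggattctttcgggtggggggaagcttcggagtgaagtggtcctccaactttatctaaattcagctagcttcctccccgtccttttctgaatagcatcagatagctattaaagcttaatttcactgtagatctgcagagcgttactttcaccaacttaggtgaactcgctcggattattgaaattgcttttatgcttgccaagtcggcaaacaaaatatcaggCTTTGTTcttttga
The window before the Axin2 start had a GC content of 69.2%, held 2 GC boxes and no TCF/LEF match. The match at Lef1 start 4, TACAAAG, lay at −147 to −141 from the start, in a window with a GC content of 44.8%. The match at Tcf7l2 start 2, CTTTGTT, lay at −14 to −8, in a window with a GC content of 40.8%.

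Values are normalized counts, which are read counts divided by 1 size factor per library, and errors are standard deviations (SD) over the samples of a group. Differences are on the log2(normalized count + 1) scale, with standard errors (SE) from one limma fit over 18941 genes, and "called" stands for an adjusted p under 0.05 together with a log2 difference of 1 or more. The estimated depth was 11.4 to 17.2 M reads in whole marrow (M, mega), 20.3 to 35.1 M in AML and 20.3 to 28.1 M in the lineage-negative libraries. Whole marrow stood apart in 2 ways that touch the members. Set against whole marrow, the log2 differences of all genes had a median of 0.67 in AML and 0.59 in lineage-negative marrow, while those between AML and lineage-negative marrow had a median of 0.02. Trimmed mean of M values (TMM) scaling brought the 3 medians to −0.01, −0.09 and 0.03, so each comparison with whole marrow is given under both scalings. In addition, 1452 olfactory and vomeronasal receptor genes, which serve here as a background level, averaged 7.14 to 13.5 normalized counts in whole marrow. Their means were 0.384 to 0.499 in lineage-negative marrow and 0.465 to 3.81 in AML, the highest in replicate 6. Marker lists followed the labels: summed stem and progenitor genes were 14587 to 19112 in lineage-negative marrow and 1316 to 2453 in whole marrow, and summed erythroid genes were highest in whole marrow.

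Axin2, the feedback scaffold often used as a readout of Wnt activity (ENSMUSG00000000142, chromosome 11, 108811175 to 108841609 in the coordinates of the table), was lower in AML than in both references. The build of these coordinates is uncertain: mm10 is listed, but only 861 of 38066 shared gene identifiers have the same start in the GRCm38 annotation. Axin2 normalized counts in AML ranged from 18.6 to 60.0, with a median of 25.4. In whole marrow replicates 1 to 4 they were 44.0, 64.3, 67.8 and 98.2, and in lineage-negative marrow 134, 84.6, 83.7 and 123. All 7 AML libraries lay below every lineage-negative library, and 5 of 7 below every whole marrow library, the exceptions being AML replicates 3 (60.0) and 6 (55.5). Group means were 33.1 ± 17.6 (SD, n = 7) in AML, 68.6 ± 22.4 (SD, n = 4) in whole and 106 ± 26.05 (SD, n = 4) in lineage-negative marrow.
The log2 difference of Axin2 was −1.77 ± 0.36 (SE) between AML and lineage-negative marrow (adjusted p = 0.000394), and −1.76 after TMM scaling. Against whole marrow it was −1.13 ± 0.36 (SE, adjusted p = 0.00979) as deposited and −1.81 after TMM scaling (adjusted p = 0.000556). Subtracting the receptor-gene level, which for a gene of Axin2's length was 10.5 to 19.8 normalized counts in whole marrow, left −0.80 (adjusted p = 0.0853), which was not called. Without whole marrow replicate 4 the difference was −0.94, under the size required. The difference between the 2 normal groups did not pass the test (0.65 ± 0.40, adjusted p = 0.164). After TMM scaling that difference was −0.04. Fewer cells that express a gene and less RNA per cell cannot be told apart in bulk samples. Per 1000 normalized counts of the stem and progenitor list, Axin2 was 3.40 to 15.8 in AML against 4.38 to 9.21 in lineage-negative marrow, ranges that overlap, and 26.2 to 42.8 in whole marrow. The part of these markers in the Axin2 difference was not tested.

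Nkd1 (ENSMUSG00000031661, chromosome 8, 89247982 to 89321512), the other feedback inhibitor, was near the detection limit and did not pass the filter on low values, so it has no test here. It was the 1 member of 8 left out. AML replicates 1 to 7 had 2.54, 0, 6.13, 0, 5.66, 2.47 and 1.08 normalized counts. Of these, 5 were at or under the value of 3 reads. Lineage-negative replicates 1 to 4 had 1.82, 5.29, 4.41 and 3.26. Whole marrow had 12.6, 6.70, 6.26 and 6.82, above every AML and lineage-negative library. The receptor-gene level for a gene of this length was 8.65 to 16.4 in whole marrow, so the whole marrow values of Nkd1 were not above that background.

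**Figure D1:**
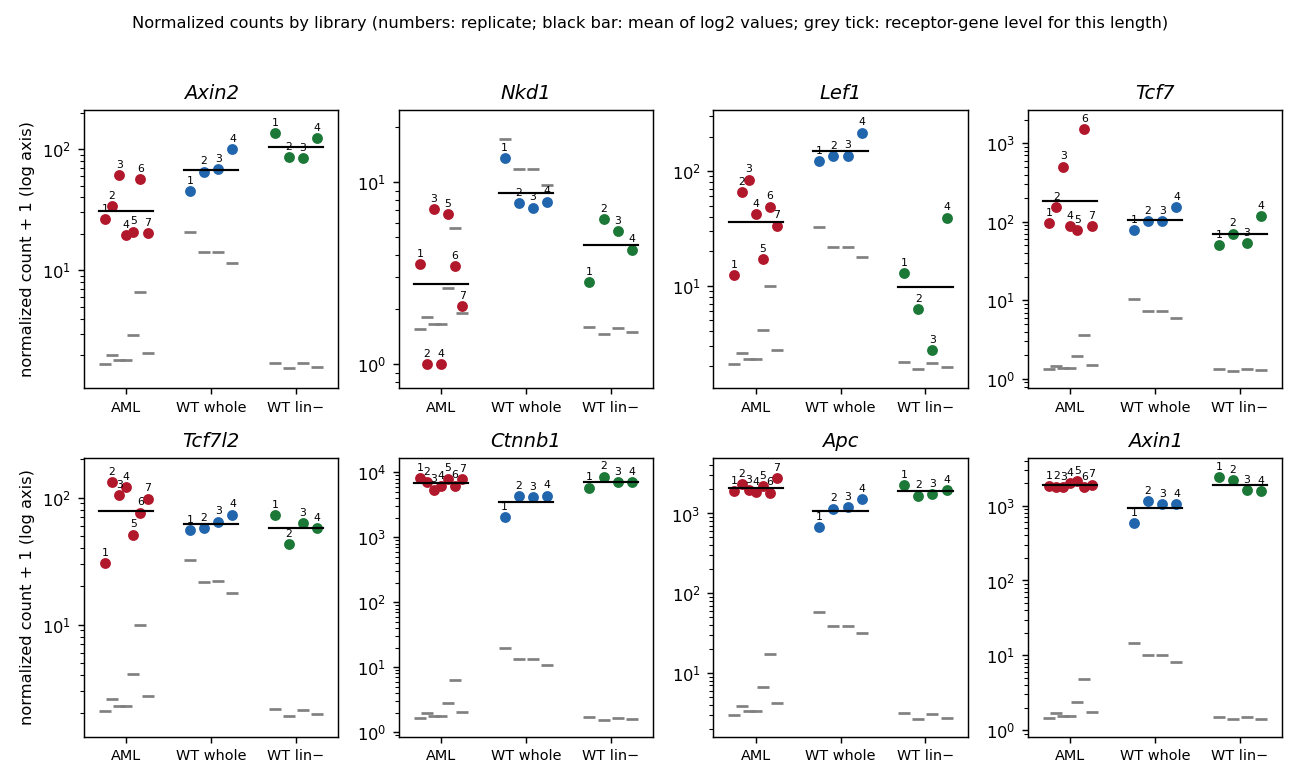
Normalized counts plus 1 (log axis) of the 8 members in each library, with replicate numbers beside the points, the mean of the log2 values as a black bar and the olfactory and vomeronasal receptor-gene level for a gene of the same length as a grey tick. Axin2 lies lowest in AML, Lef1 is ordered whole marrow, AML, lineage-negative marrow, Tcf7 is far apart in AML replicates 3 and 6, and Nkd1 lies under the grey ticks in whole marrow.

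Across the 8 members, limma called 3 between AML and whole marrow: Axin1 higher, Axin2 and Lef1 lower. Of all genes tested, 38.5% were called in that comparison (27.3% higher and 11.3% lower in AML). After TMM scaling the share was 20.8% (4.73% higher and 16% lower), and Axin2 and Lef1 were the 2 members called. Between AML and lineage-negative marrow 2 members were called, Axin2 lower and Lef1 higher, where 30.3% of all genes were called (17.7% higher and 12.5% lower), or 30% after TMM scaling (17.6% and 12.4%). Between the 2 normal groups 2 members were called, Axin1 higher and Lef1 lower in lineage-negative marrow, where 50.3% of all genes were called (33.1% higher and 17.2% lower). With TMM scaling the share was 35.7% (11% higher and 24.8% lower), with Lef1 alone among the members. The comparisons share their samples, so the same AML values stand in both AML comparisons.

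Lef1 (ENSMUSG00000027985, chromosome 3, 130904120 to 131018005), a DNA-binding partner of β-catenin, took an intermediate level in AML. AML values ranged from 11.5 (replicate 1) to 83.3 (replicate 3), with a median of 41.1. Whole marrow replicates had 121, 134, 135 and 216 normalized counts, and lineage-negative replicates had 11.8, 5.29, 1.76 and 38.3. All 7 AML libraries were below all whole marrow libraries, and 4 of 7 were above all lineage-negative libraries. The means were 42.4 ± 25.6 (SD, n = 7) in AML, 151 ± 43.3 (SD, n = 4) in whole and 14.3 ± 16.5 (SD, n = 4) in lineage-negative marrow. AML differed from whole marrow by −2.04 ± 0.59 (SE, adjusted p = 0.00526) and from lineage-negative marrow by 1.90 ± 0.59 (SE, adjusted p = 0.0117). Lineage-negative marrow differed from whole marrow by −3.94 ± 0.66 (SE, adjusted p = 4.00e-05), with all 4 of its libraries below all 4 of the other. TMM scaling gave −2.72, 1.88 and −4.61, and each remained called. The call against lineage-negative marrow was lost without lineage-negative replicate 3, whose Lef1 value was under that of 3 reads (1.299, adjusted p = 0.0763).
B-lineage markers had the same order of group medians as Lef1, but did not follow it in every library. The summed level of 13 B-lineage genes was 648 to 6814 in AML, 5898 to 13074 in whole marrow and 1307 to 1707 in lineage-negative marrow, with no gene of the list at 0 in every library of a group. AML replicate 6 had the lowest sum with a Lef1 value of 48.0. Lineage-negative replicate 4 had the highest Lef1 value of its group (38.3) and its lowest sum. All 13 were called and lower in AML when set against whole marrow, and against lineage-negative marrow 8 were called higher and 2 lower in AML. The 3 genes whose pattern over the 15 samples was most like Lef1 were Pax5 (Pearson r = 0.94), Ebf1 (r = 0.93) and Ms4a1 (r = 0.92), all 3 in that list. Pax5 and Ebf1 encode transcription factors of B cell commitment, and Ms4a1 encodes the B cell surface protein CD20. Within the 7 AML libraries alone r was 0.81, 0.80 and 0.83. With the B-lineage sum itself, Lef1 had an r of 0.75 over 15 samples and 0.74 over the 7 AML libraries. These correlations run over samples that share group structure and are descriptions. Per 1000 normalized counts of the B-lineage sum, Lef1 was 14.5 to 20.6 in whole marrow and 12.2 to 74.1 in AML, with a median of 16.6. In lineage-negative marrow it was 1.29 to 29.3, with a median of 5.02. AML replicate 6, with the lowest B-lineage sum, had the highest such value. The part of B-lineage cells in the Lef1 differences was not tested.

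Tcf7 (ENSMUSG00000000782, chromosome 11, 52143198 to 52174158, minus strand), which encodes the T cell factor TCF1, varied more within AML than between the groups. AML replicates 1 to 7 had 95.4, 152, 504, 87.0, 78.3, 1505 and 87.4 normalized counts. Replicates 3 and 6 lay above every normal sample and the other 5 fell within the range of the normal samples. Whole marrow had 77.2, 100.5, 101 and 154, and lineage-negative marrow 49.9, 69.6, 52.9 and 118. The mean of 358 ± 528 (SD, n = 7) in AML therefore stood far above the median of 95.4, while the normal means were 108 ± 32.6 (SD, n = 4) and 72.6 ± 31.5 (SD, n = 4). Tcf7 was called in none of the 3 comparisons. The difference was 0.79 ± 0.62 (SE, adjusted p = 0.268) against whole marrow, 1.40 ± 0.62 (SE, adjusted p = 0.0708) against lineage-negative marrow and −0.61 ± 0.70 (SE, adjusted p = 0.453) between the normal groups. TMM scaling gave 0.10, 1.41 and −1.31, and none was called. Against lineage-negative marrow Tcf7 was called when AML replicate 4 (1.58), 5 (1.60) or 7 (1.58) was left out.
T cell markers were also highest in AML replicates 3 and 6. The summed level of 16 T cell genes was 8029 and 8045 in AML replicates 3 and 6, against a median of 2451 in AML, 1138 to 1800 in whole marrow and 577 to 786 in lineage-negative marrow. AML replicate 2 had the next highest sum, 5128, with a Tcf7 value of 152 that lay within the normal range. Of the 16, 9 were called as higher in AML than in whole marrow as deposited, where 27.3% of all genes were. The median log2 difference of the 16 there was 1.27, against 0.67 over all genes. Their calls after TMM scaling are not given here. Against lineage-negative marrow 14 were called higher in AML, where 17.7% of all genes were, and none was called lower in either comparison. The 3 genes most like Tcf7 over the 15 samples were Skap1, an adaptor protein of T cells (r = 0.89), Cd247, a T cell receptor chain in that list (r = 0.87), and Gimap6 (r = 0.87). The likeness of Tcf7 to the T cell sum itself was r = 0.82 over 15 samples and 0.89 over the 7 AML libraries. Per 1000 normalized counts of that sum, Tcf7 was 187 in AML replicate 6 and 62.7 in replicate 3, against 57.7 to 85.6 in whole marrow and 84.6 to 150 in lineage-negative marrow. The other 5 AML libraries had 29.6 to 51.5, below every normal library, and the AML median was 45.3. On this measure replicate 6 was above all normal libraries and replicate 3 within the whole marrow range. The part of T cells in the Tcf7 values was not tested.

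**Figure D2:**
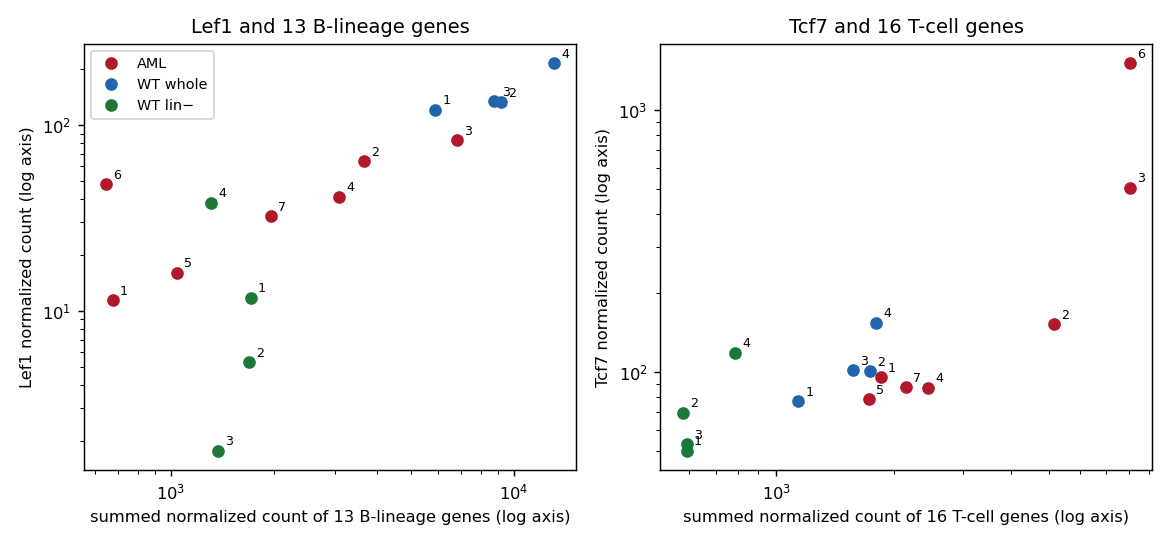
Left, Lef1 against the summed normalized count of 13 B-lineage genes, and right, Tcf7 against the summed normalized count of 16 T-cell genes, 1 point per library with its replicate number, all axes logarithmic. Lef1 rises with the B-lineage sum except in AML replicate 6 and the lineage-negative libraries, and AML replicates 3 and 6 have both the highest T-cell sums and the highest Tcf7.

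The balance of Tcf7 and Lef1 differed between whole marrow and the other groups. The ratio of Tcf7 to Lef1 normalized counts within a library, which does not depend on the scaling between libraries, was 0.64 to 0.75 in whole marrow. It was 2.12 to 31.4 with a median of 4.88 in AML, and from 3.08 upward with a median of 8.70 in lineage-negative marrow, so neither overlapped with whole marrow.

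Tcf7l2 (ENSMUSG00000024985, chromosome 19, 55730252 to 55922086), the TCF factor best known from intestine and metabolism, was called in no comparison. AML replicates 1 to 7 had 29.3, 132, 104, 119, 50.02, 75.3 and 97.1 normalized counts. Of these, 5 were above every value of both normal groups, while replicate 1 was below all of them. Whole marrow had 54.7, 56.3, 63.7 and 72.3, and lineage-negative marrow 71.7, 42.3, 61.7 and 56.8. The means of 86.6 ± 37.1 (SD, n = 7), 61.7 ± 8.04 (SD, n = 4) and 58.1 ± 12.2 (SD, n = 4) lay within the spread of AML. The differences were 0.34 ± 0.35 (SE, adjusted p = 0.396), 0.44 ± 0.35 (SE, adjusted p = 0.315) and −0.10 ± 0.39 (SE, adjusted p = 0.832) for AML against whole marrow, AML against lineage-negative marrow, and the normal groups. The sign against whole marrow turned with TMM scaling (−0.34), which gave −0.79 between the normal groups. The receptor-gene level for a gene of this length came to 36.4% of the mean of Tcf7l2 in whole marrow, and with that level subtracted AML against whole marrow was 0.98 (adjusted p = 0.0316), just under the size required. The genes most like Tcf7l2 were Snx32 (r = 0.84), Slc25a53 (r = 0.78) and Clcf1 (r = 0.77) over the 15 samples.

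The 3 members of the β-catenin module proper, Ctnnb1, Apc and Axin1, were abundant, with AML means close to those of lineage-negative marrow and above those of whole marrow. Ctnnb1 (ENSMUSG00000006932, chromosome 9, 120758282 to 120789573), which encodes β-catenin, ranged from 5456 to 8080 in AML with a median of 7144. Lineage-negative marrow had 5831, 8659, 7156 and 7013, and whole marrow 2042, 4289, 4192 and 4382. The means were 7007 ± 1037 (SD, n = 7), 7165 ± 1160 (SD, n = 4) and 3726 ± 1126 (SD, n = 4). AML and lineage-negative libraries overlapped throughout (−0.03 ± 0.21, SE, adjusted p = 0.915). All 7 AML libraries were above all whole marrow libraries (0.96 ± 0.21, SE, adjusted p = 0.000747), but the difference was under the size required and was 0.27 (adjusted p = 0.0986) after TMM scaling. Ctnnb1 was called there when AML replicate 3 or whole marrow replicate 2, 3 or 4 was left out (1.02 to 1.06). Lineage-negative against whole marrow gave 0.99 ± 0.24 (SE, adjusted p = 0.00137), and 0.29 after TMM scaling. This difference was called with the receptor-gene level subtracted (1.0003), and without whole marrow replicate 2, 3 or 4 or lineage-negative replicate 1 (1.07 to 1.09).
Axin1 (ENSMUSG00000024182, chromosome 17, 26357662 to 26414785), the constitutive scaffold, ranged from 1754 to 2122 in AML with a median of 1816. It was 583, 1144, 1037 and 1051 in whole marrow and 2386, 2177, 1595 and 1564 in lineage-negative marrow. Axin1 was called higher in AML than in whole marrow (1.02 ± 0.19, SE, adjusted p = 0.000135) and in lineage-negative than in whole marrow (1.04 ± 0.21, SE, adjusted p = 0.000275). After TMM scaling these were 0.33 and 0.34 and neither was called, and without whole marrow replicate 1 they were 0.80 and 0.82. The first call was also lost without AML replicate 5 (0.995) and the second without lineage-negative replicate 1 (0.93) or 2 (0.97). Against lineage-negative marrow the difference was −0.01 ± 0.19 (SE, adjusted p = 0.959).
Apc (ENSMUSG00000005871, chromosome 18, 34353977 to 34455605), the tumour suppressor of the destruction complex, ranged from 1820 to 2795 in AML with a median of 1941. Whole marrow had 669, 1147, 1208 and 1495, and lineage-negative marrow 2269, 1673, 1766 and 1975. The difference of AML was 0.95 ± 0.20 (SE, adjusted p = 0.000417) against whole marrow, 0.26 after TMM scaling, and 0.14 ± 0.20 (SE, adjusted p = 0.593) against lineage-negative marrow. Lineage-negative against whole marrow gave 0.81 ± 0.22 (SE, adjusted p = 0.00354) and 0.11 after TMM scaling. As deposited and after TMM scaling Apc was called in no comparison, with 7 of 7 AML libraries above all whole marrow libraries, and passed the size required against whole marrow without whole marrow replicate 3 (1.004) or 4 (1.11). It was also called there with the receptor-gene level subtracted (1.01, adjusted p = 0.000319).

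**Figure D3:**
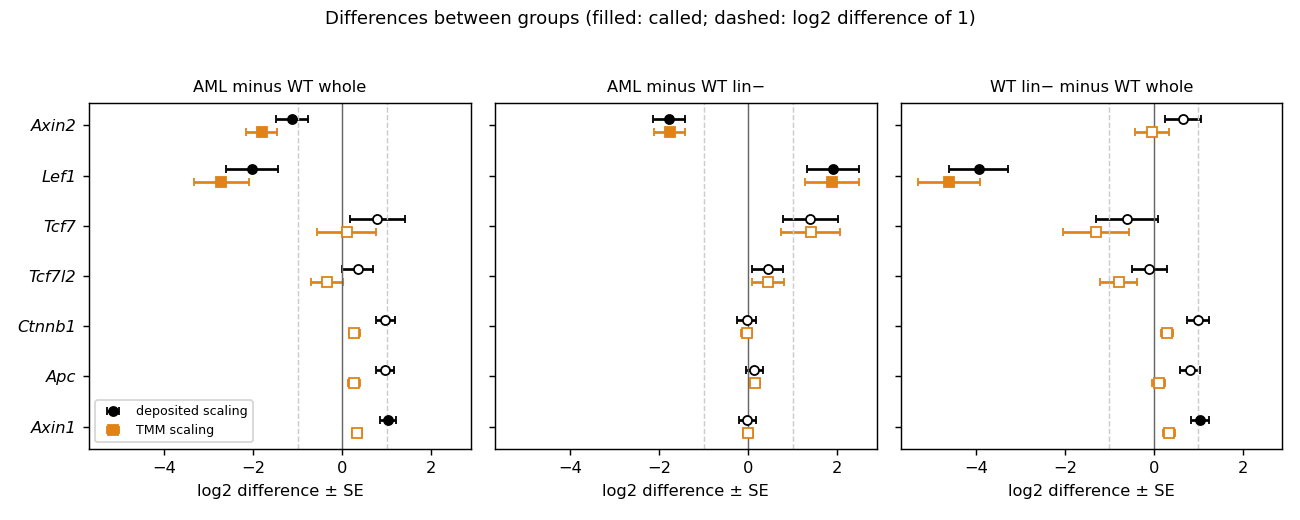
Log2 differences with standard errors of the 7 members that passed the filter, in the 3 comparisons, as deposited (black circles) and after TMM scaling (orange squares), with filled symbols where the gene was called. Axin2 and Lef1 are called in AML against both references under both scalings, while Axin1 is called against whole marrow under the deposited scaling alone.

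The balance of the constitutive and the feedback scaffold differed between AML and normal libraries. The ratio of Axin1 to Axin2 normalized counts within a library was 29.2 to 109 in AML, 10.7 to 17.8 in whole marrow and 12.7 to 25.7 in lineage-negative marrow, so that no AML library overlapped with a normal one. This ratio carries the Axin2 difference given above and is no separate result. The closest values, 29.2 in AML replicate 3 and 25.7 in lineage-negative replicate 2, rest on about 49 and 96 Axin2 reads. Per kilobase of exon, the order of the means in AML was Ctnnb1 (1350), Axin1 (492), Tcf7 (137), Apc (132), Tcf7l2 (9.87), Axin2 (6.01), Lef1 (4.82) and Nkd1 (0.56). Tcf7 stood above Apc there through replicates 3 and 6. In lineage-negative marrow Axin2 (19.3) stood above Tcf7l2 (6.62) and Lef1 (1.63), and in whole marrow Lef1 (17.2) stood above Axin2 (12.5) and Tcf7l2 (7.04). Axin2 had its 3 most similar genes in Cited4 (r = 0.91), Sec14l2 (r = 0.90) and Ces2g (r = 0.90) over the 15 samples. Within AML r was 0.65, 0.87 and 0.54. For Nkd1 these were Neto2, Marchf8 and Eif2s3y (r of 0.77, 0.76 and 0.75), over values close to the detection limit. Eif2s3y, a gene of the Y chromosome, had a median of 0 in AML (0 to 1639.5). It was 525 to 968 in whole marrow and 0 to 887 in lineage-negative marrow. The groups may thus differ in sex, which is not given, and its part in the differences was not tested.

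The pathway as a whole, the 8 members included, was read from lists by role, with 110 genes, of which 80 passed the filter. Between AML and lineage-negative marrow 13 were called higher and 12 lower, with a median log2 difference of 0.22 against 0.02 over all genes. The share called, 31.2%, was close to the 30.3% of all genes. Without the members, 12 of 73 were higher and 11 lower. These 25 were the same genes after TMM scaling. Between AML and whole marrow 23 were called higher and 13 lower as deposited (median 0.74 against 0.67 over all genes), but 3 higher and 19 lower after TMM scaling, and 16 genes were called in the same direction by both. The shares called were 45% and 27.5%, against 38.5% and 20.8% of all genes. Between lineage-negative and whole marrow 22 were called higher and 13 lower (median 0.54 against 0.59), or 10 and 21 after TMM scaling, with 23 in common. Of the list 43.8% were called as deposited, against 50.3% of all genes, and 38.8% after TMM scaling, against 35.7%.
At the cell surface, 6 of 17 receptor genes (35.3%) were called lower in AML than in lineage-negative marrow and 2 (11.8%) higher, with a median of −0.58. Over all genes tested the shares in this comparison were 12.5% lower and 17.7% higher, and the counts by role below stand against these. Among the receptors called lower, Fzd3 and Fzd9 had means under 50 normalized counts over all samples. Both were also called higher in lineage-negative than in whole marrow as deposited, so lineage-negative marrow may have carried them past the filter. Ryk, a Wnt co-receptor, was 14.0 to 84.6 in AML with a median of 28.3, against 170 to 296 in lineage-negative marrow (−2.69 ± 0.42, SE, adjusted p = 3.12e-05). Fzd6, a Frizzled receptor, was 11.9 to 61.3 with a median of 22.9 in AML against 121 to 193 (−2.59 ± 0.41, SE, adjusted p = 3.76e-05). All 7 AML libraries lay below all lineage-negative libraries for both. The same held for Fzd7 (−1.16) and for Znrf3, a ubiquitin ligase that removes Frizzled from the surface and is itself a Wnt target. Znrf3 was 80.2 to 153 in AML against 326 to 360 in lineage-negative marrow (−1.60 ± 0.22, SE, adjusted p = 7.18e-06). In the other direction, Fzd4 was 57.6 to 211 in AML against 32.6 to 53.6 in lineage-negative marrow (1.35 ± 0.30, SE, adjusted p = 0.00117). Fzd1 had a difference of 1.75 (adjusted p = 0.0287), with 1 AML library at 447 against an AML median of 48.4, and was not called once the receptor-gene level was subtracted (adjusted p = 0.104). Lrp5 and Lrp6, the co-receptors, were not called between AML and lineage-negative marrow (−0.38 and −0.78), although Lrp6 was lower in all 7 AML libraries. Against whole marrow, Fzd7 was called higher in AML as deposited (1.40) but not after TMM scaling (0.71). Fzd6 (−0.17), Znrf3 (0.74) and Fzd4 (0.93) were not called there, nor after TMM scaling (−0.84, 0.05 and 0.24). Ryk was not called there as deposited (−0.50) and was called lower in AML after TMM scaling (−1.18). The difference of Fzd4 between lineage-negative and whole marrow was −0.42 as deposited, not called, and −1.11 after TMM scaling, called.
Of 9 ligand and secretion genes that passed the filter, 5 (55.6%) were called higher in AML than in lineage-negative marrow, against 17.7% of all genes, and none lower, with a median of 1.499. They were Rspo1, Rspo2, Wnt6, Wnt10a and Wnt10b, named after their values were seen, each with a mean under 50 normalized counts over all samples. Rspo1, Rspo2, Wnt10a and Wnt10b were also called lower in lineage-negative than in whole marrow, so whole marrow may have carried them past the filter. Wnt6 was called higher in AML than in both references under both scalings, so AML itself may have carried it past the filter. The receptor-gene level was highest in whole marrow, and averaged 1.16 in AML against 0.446 in lineage-negative marrow. With the receptor-gene level subtracted, 21 genes of all the Wnt lists were called between AML and lineage-negative marrow, against 25 as deposited. Whether the 5 ligand genes were among the 21 is not given here, so the part of this background in their calls is not known. Wls, which carries Wnt proteins to the surface, was higher in all 7 AML libraries but under the size required (0.52, adjusted p = 0.0383). Of 7 secreted or surface inhibitors, 2 (28.6%) were called higher and 1 (14.3%) lower.
In the cytoplasm, 3 of 25 genes were called lower in AML than in lineage-negative marrow and none higher. The share called lower, 12%, was about that of all genes, 12.5%. Beside Axin2 they included Amer1, a partner of Apc (−1.07 ± 0.22, SE, adjusted p = 0.000506, lower in 7 of 7 AML libraries). Against whole marrow Amer1 was called higher in AML as deposited (1.02) but not after TMM scaling (0.32). Btrc, the substrate adaptor that presents phosphorylated β-catenin for ubiquitination, was below both references in AML. It was 227 to 334 in AML, 502 to 1112 in whole marrow and 438 to 640 in lineage-negative marrow, with no AML library overlapping either. The difference was −1.53 ± 0.21 (SE, adjusted p = 8.13e-06) against whole marrow, −2.22 after TMM scaling, and −0.95 ± 0.21 (SE, adjusted p = 0.000854) against lineage-negative marrow, which was under the size required.
In the nucleus, Ctnnbip1, an inhibitor that keeps β-catenin from TCF factors, was 257 to 484 in AML against 119 to 140 in lineage-negative marrow (1.53 ± 0.24, SE, adjusted p = 2.61e-05). Against whole marrow Ctnnbip1 in AML was not called as deposited (0.96) or after TMM scaling (0.26). Its difference between lineage-negative and whole marrow was −0.57 as deposited, not called, and −1.27 after TMM scaling, called. The co-repressor Tle3 was higher than in lineage-negative marrow in all 7 AML libraries at 0.90, under the size required. Of 12 target genes, 3 (25%) were called higher and 3 (25%) lower, and Axin2 and Lef1 were on opposite sides. Myc was 719 to 1688 in AML against 4421 to 9414 in lineage-negative marrow (−2.40 ± 0.25, SE, adjusted p = 1.91e-07). Against whole marrow Myc was called higher in AML as deposited (1.11) but not after TMM scaling (0.42). Cd44, an adhesion receptor, was higher in AML than in lineage-negative marrow (1.296 ± 0.23, SE, adjusted p = 0.000102), in 7 of 7 libraries. Against whole marrow Cd44 in AML was not called as deposited (0.76) or after TMM scaling (0.06). Its difference between lineage-negative and whole marrow was −0.54 as deposited, not called, and −1.24 after TMM scaling, called. Ccnd1, which encodes cyclin D1, and Bambi were called higher in AML than in whole marrow under both scalings (1.89 and 1.72 as deposited), and neither was called against lineage-negative marrow (0.54 and −0.16). Between AML and lineage-negative marrow, 7 of 9 stem and progenitor markers were called lower in AML and 1 higher. Of the neutrophil markers 7 of 9 were called higher and 1 lower, and of the monocyte or macrophage markers 8 of 8 higher. Over all genes 12.5% were called lower and 17.7% higher. The part of these markers in the differences above was not tested.

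**Figure D4:**
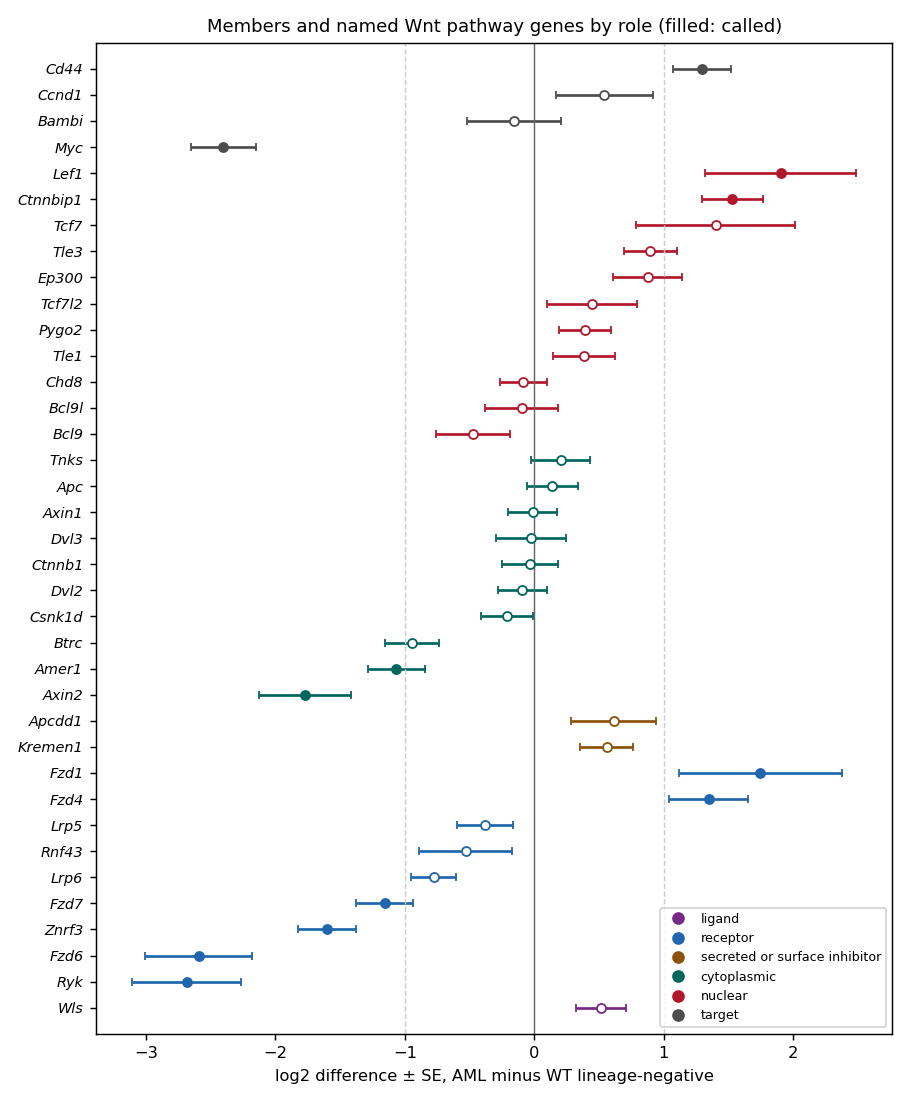
Log2 differences with standard errors between AML and lineage-negative marrow of the members that passed the filter and of the named pathway genes, coloured by role, filled where called. Receptors spread from −2.69 (Ryk) to 1.75 (Fzd1), the cytoplasmic genes have Axin2 (−1.77) and Amer1 (−1.07) as called, and Lef1 (1.90) and Ctnnbip1 (1.53) are the called nuclear genes shown.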

How the data were processed

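RNA extracted with TRIzol was made into TruSeq Stranded Total RNA libraries, per the labels' protocols. The deposited values are of the unit signal: the authors divided estimated counts per gene by 1 DESeq2 size factor of the poscounts type for each library, per the name of the table. The build mm10 and the tools Partek, STAR and DESeq2 are listed without role or version, per the submitters' processing notes, and the counting strand is not given in the sources used here, so reads of overlapping and antisense genes cannot be told apart. Of the low values 79.6% to 85.5% were whole multiples of the value of 1 read (tolerance 0.02), so whole reads were not recovered and no count model was run. Depth is the total divided by that value, and 3 reads came to 1.96 to 4.09 normalized counts, which covers counting error only. Samples were grouped by their titles, and within groups log2 values correlated at 0.919 to 0.981.

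Genes with at least 10 normalized counts in at least 4 samples were kept, 18941 of 38315. They entered 1 limma fit (version 3.58.1, R 4.3.3) of 3 group means on log2(value + 1) with a mean-variance trend, two-sided, with Benjamini-Hochberg adjustment over all genes kept. The fit was tested on simulated data. TMM factors were computed on the genes kept. Exonic lengths are from GENCODE M21 on GRCm38, whose gene starts match the table for 861 of 38066 shared identifiers, so positions are given as the table has them.

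The members and lists were chosen with earlier results of these data known. The text names the 8 members, the genes of the Wnt lists called in at least 1 comparison with a mean of at least 50, of which it gives those that bear on the roles described, and the 3 genes most correlated with each of 5 members (out of 10040 whose mean was 100 or more). Alternatives were pseudocounts of 0.1 and 5, 2 other filters, scaling by TMM or by quantiles, fits of 2 groups alone, the replicate number as a block and leaving out each library. Subtracting the receptor-gene level and leaving out AML replicates 5 and 6 were added after seeing the data.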

Additional observations from a re-analysis of the deposited data

Results flagged for a closer look

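In 24 groups of values, 8 members in 3 groups of samples, 4 had 1 sample far from the others by Dixon's criterion. Chance alone meets it in about 1 of 20 groups of independent, normally distributed values. The values here were normalized counts without a log transform, and the 8 members share their libraries, so that rate need not hold. Tcf7 had 1505 normalized counts in AML replicate 6, with the next AML library at 504. That library also had the highest T cell marker sum of all libraries and the lowest B-lineage sum. Lef1 had 216 normalized counts in whole marrow replicate 4, with the next at 135, and the same library had the highest B-lineage sum (13074). Ctnnb1 had 2042 normalized counts in whole marrow replicate 1, with the next lowest at 4192, and Nkd1 had 12.6 there, with the next at 6.82. The total of the normalized counts was also lowest in that library and its receptor-gene level highest. The part of these library properties in the 4 values was not tested.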

How the results depend on the processing

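Axin2 and Lef1 kept their direction in both AML comparisons under all alternatives run, and their calls were lost only as given in the report. No change of sign listed here reached an adjusted p under 0.05 in limma under the alternative. With TMM and with quantile scaling the members called between lineage-negative and whole marrow were 1 and 1, the Wnt list genes called between AML and whole marrow 22 and 17, and all genes called there 3934 and 4762. With all genes that had a non-zero value, 16590 and 18984 genes were called in AML and in lineage-negative against whole marrow. With a mean of at least 50, fewer genes were tested: 4863 were called for AML against whole and 3820 against lineage-negative marrow, and 12 and 20 Wnt list genes for AML against lineage-negative and for lineage-negative against whole marrow. Leaving out each library gave 2 to 5 members called for AML against whole marrow (5 without whole marrow replicate 3), 1 to 3 against lineage-negative marrow (1 without lineage-negative replicate 3) and 1 to 3 between the normal groups (1 without whole marrow replicate 1 or lineage-negative replicate 2). It gave 22 to 37 Wnt list genes and 4480 to 7553 genes for AML against whole marrow, the lowest without whole marrow replicate 1. 

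Signs of log2 differences turned as follows, and the cause was not tested. None of these differences was called as reported, though Cd44, Pygo2 and Wls had adjusted p-values of 0.00706, 0.0115 and 0.0159 in limma. For lineage-negative against whole marrow, TMM gave −0.043 for Axin2, −0.034 for Apcdd1, −0.43 for Ep300, −0.011 for Pygo2, −0.32 for Tle3 and −0.057 for Wls, quantile scaling −0.32 for Ep300, −0.0067 for Pygo2, −0.25 for Tle3, −0.036 for Wls and 0.27 for Fzd1, and background subtraction 0.57 for Tcf7l2, 1.36 for Fzd1 and 0.089 for Fzd4. For AML against whole marrow, TMM gave −0.34 for Tcf7l2 and −0.10 for Rnf43, quantile scaling −0.19 for Tcf7l2, −0.045 for Rnf43 and −0.026 for Cd44, and background subtraction 1.17 for Fzd6. For AML against lineage-negative marrow without AML replicates 5 and 6, Bcl9l was 0.048 and Dvl3 0.10. Leaving out each library gave ranges across 0 between AML and lineage-negative marrow of −0.13 to 0.064 for Ctnnb1, −0.11 to 0.10 for Axin1, −0.29 to 0.089 for Bambi, −0.31 to 0.23 for Bcl9l, −0.19 to 0.047 for Chd8 and −0.25 to 0.16 for Dvl3. Likewise they were −0.40 to 0.12 for Fzd6 in AML against whole marrow, and −0.21 to 0.039 for Tcf7l2 and −0.017 to 0.54 for Ep300 between the normal groups.

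No general pairing by replicate number was seen: deviations of same-numbered samples correlated at −0.29 to 0.17, with 4 of 12 closest to their own number. Between lineage-negative and whole marrow, replicates 1 (0.090) and 2 (0.17) were closest to their own number and replicates 3 and 4 were not. With so few samples per group, this check cannot exclude a pairing. With the replicate number as a block, Axin1 in AML against whole marrow was 0.997 (adjusted p = 0.00563), just under the size required, Fzd6 there turned to 0.032, and Bcl9l, Chd8 and Dvl3 in AML against lineage-negative marrow to 0.0056, 0.0011 and 0.073, and no other member's call changed. Depth limits Nkd1, and the background of whole marrow limits Axin2 and Tcf7l2 there.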
